A study of Saccharomyces cerevisiae with 12 samples.

Results

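The proteasome subunit genes and RPN4 are 33 genes of budding yeast, of 6713 targets in the files. They were taken by name: 32 genes for subunits of the 26S proteasome and RPN4, which encodes their transcription activator. The subunit genes are 7 of the alpha ring, 7 of the beta ring, 6 RPT genes and 12 RPN genes. All 33 had enough counts to be tested, and every one of their counts was a whole number in the 12 libraries.

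Messenger RNA was sequenced from Saccharomyces cerevisiae S288c grown in synthetic defined medium to an optical density of 0.4 at harvest, with 3 libraries for each of 4 genotypes. These were RPD3 KO, which lacks the gene for the histone deacetylase Rpd3, RPD3 S418A and SWI3 S237A, which carry an alanine in place of a serine in Rpd3 and in the SWI/SNF chromatin remodelling subunit Swi3, and wild type. All 4 share the S288c background. The submitters' treatment text also mentions 20 mM caffeine for 4 h for part of their samples, but every library used here is labelled with the medium alone. The labels do not say how the alleles were made, whether a genotype is 1 clone or whether its 3 libraries came from separate cultures, so p-values measure the spread between these libraries.

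The 26S proteasome is the protease that degrades ubiquitin-tagged proteins. Its barrel, the 20S core, stacks outer alpha rings on inner beta rings that hold the active sites, and a 19S cap sits on the barrel: its base holds the 6 Rpt ATPases that unfold and feed in the substrate, and its lid and remaining Rpn subunits bind and trim the ubiquitin chain. In yeast the zinc-finger activator Rpn4 binds a short promoter element, PACE (proteasome-associated control element), in front of nearly all subunit genes. Rpn4 is itself quickly degraded by the proteasome, and its own gene is known to be switched on by the heat shock factor Hsf1 and by the drug and oxidant regulators Pdr1, Pdr3 and Yap1. The question was whether the 33 genes move as the chaperone genes of the heat shock response do in these strains.

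Total estimated counts ran from 18292555 to 26952031 per library. RPD3 had 0 counts in each of the 3 RPD3 KO libraries, which allows at most 3 counts (0.133 to 0.159 CPM), against 103.2, 109.4 and 111.9 CPM in wild type. Counts of RPD3 and SWI3 do not check the point mutants, whose messages are made. Wild type replicate 1 stood apart from the other wild type libraries: the chi-square of its counts per degree of freedom was 105 and 121 against them, while it was 9.08 between replicates 9 and 17. CPM below are library-size-scaled counts (counts-per-million, CPM) with TMM factors (trimmed mean of M values), log2 fold changes are given ± SE, and a gene was called at an adjusted p under 0.05 over all 6327 targets tested with edgeR (quasi-likelihood test, Benjamini-Hochberg adjustment).

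The promoters of the subunit genes share PACE, and they are shown because it is the sequence the group has in common. Windows ran from 250 bases before the start codon through the first 50 bases of the coding sequence, read from RefSeq R64. PACE was searched as GGTGGCAAA on either strand (TTTGCCACC on the other). It stood in 27 of the 32 subunit windows (84.4%), in 45 of 5968 windows of other genes (0.754%) and in 1.20% of all 6001 windows. The 27 copies lay 84 to 183 bases before the start codon with a median of 120, and 19 of them read in the direction of the gene. Of the 5 genes without the exact letters, PRE5, PUP1 and RPN8 held AGTGGCAAA, a form found by freeing the first base after the exact counts were seen, and RPN10 and RPN13 had no match in the window. With the first base free (NGTGGCAAA), 30 of 32 subunit windows matched, against 1.89% of the others.

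Shown here are the RPN4 window, the window of the PACE gene with the largest absolute log2 change in RPD3 KO from each subunit group (PRE8, PRE3, RPT2 and RPN3), and that of RPN8, the gene without exact PACE that changed most there. Capitals mark the matched motif, which is the heat shock element in RPN4, PACE in PRE8, PRE3, RPT2 and RPN3, and the near match in RPN8.
RPN4 (chrIV:416659-416958, minus strand): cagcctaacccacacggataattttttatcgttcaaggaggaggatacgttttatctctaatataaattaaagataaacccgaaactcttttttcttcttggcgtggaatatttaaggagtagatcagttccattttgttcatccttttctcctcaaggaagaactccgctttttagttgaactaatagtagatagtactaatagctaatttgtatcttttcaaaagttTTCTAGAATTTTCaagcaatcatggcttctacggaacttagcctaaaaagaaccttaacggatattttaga
PRE8 (chrXIII:86690-86989, minus strand): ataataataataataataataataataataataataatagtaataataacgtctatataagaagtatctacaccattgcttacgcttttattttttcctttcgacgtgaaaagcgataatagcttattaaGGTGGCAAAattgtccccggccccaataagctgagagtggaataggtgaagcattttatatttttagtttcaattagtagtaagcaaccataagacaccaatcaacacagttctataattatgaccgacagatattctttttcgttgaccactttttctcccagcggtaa
PRE3 (chrX:434913-435212, plus strand): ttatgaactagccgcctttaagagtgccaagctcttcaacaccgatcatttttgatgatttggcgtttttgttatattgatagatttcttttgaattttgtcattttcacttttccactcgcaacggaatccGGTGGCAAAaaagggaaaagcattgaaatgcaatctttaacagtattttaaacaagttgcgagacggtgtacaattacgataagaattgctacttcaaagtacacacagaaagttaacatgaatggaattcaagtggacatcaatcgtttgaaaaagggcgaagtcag
RPT2 (chrIV:437797-438096, plus strand): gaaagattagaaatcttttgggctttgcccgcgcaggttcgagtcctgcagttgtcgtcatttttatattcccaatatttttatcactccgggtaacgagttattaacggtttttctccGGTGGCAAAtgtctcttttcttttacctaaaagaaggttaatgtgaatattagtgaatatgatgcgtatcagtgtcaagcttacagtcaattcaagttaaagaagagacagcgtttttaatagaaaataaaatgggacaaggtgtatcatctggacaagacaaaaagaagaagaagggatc
RPN3 (chrV:196698-196997, plus strand): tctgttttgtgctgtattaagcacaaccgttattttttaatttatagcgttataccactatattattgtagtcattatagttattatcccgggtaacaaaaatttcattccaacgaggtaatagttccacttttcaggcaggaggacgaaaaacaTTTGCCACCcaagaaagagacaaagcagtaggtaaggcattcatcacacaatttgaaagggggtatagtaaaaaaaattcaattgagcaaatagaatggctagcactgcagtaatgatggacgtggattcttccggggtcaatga
RPN8 (chrXV:816882-817181, minus strand): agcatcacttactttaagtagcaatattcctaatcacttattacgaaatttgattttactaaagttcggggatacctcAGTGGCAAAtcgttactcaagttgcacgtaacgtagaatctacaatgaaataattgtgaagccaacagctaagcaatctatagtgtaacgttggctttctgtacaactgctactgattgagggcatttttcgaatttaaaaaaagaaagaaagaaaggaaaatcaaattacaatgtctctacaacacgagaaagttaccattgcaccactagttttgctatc

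In PRE8, PRE3 and RPT2 the element began 120, 118 and 131 bases before the start codon and read with the gene, and in RPN3 it read against the gene. The heat shock element, the site of Hsf1, was searched on either strand as an inverted repeat of 3 blocks with 2 free bases between them, of which the capitals in the RPN4 window show a match. It was in the RPN4 window 21 bases before the start codon and in 0 of the 32 subunit windows. This element was in 0.783% of all windows. A wider window of 500 bases before the start codon, also chosen after the first counts, held 2 such elements in RPN4 and again 0 in the subunit genes. The stress response element AGGGG, searched on either strand, a short sequence bound by Msn2 and Msn4, was in 8 of the 32 subunit windows, beside 21.6% of all windows, and had 0 matches in that of RPN4. The Pdr1 and Pdr3 element, searched as TCCGCGGA, had 0 matches in the RPN4 window, 1 in the 32 subunit windows and was in 0.217% of all windows. That 1 match lay inside the coding sequence of RPN11, and the 500 bases before the start codon held 0 in the subunit genes. The Yap1 element, searched as TTACTAA on either strand, had 0 matches in the RPN4 window, was in 3 of the 32 subunit windows and in 7.45% of all windows. In 500 bases before the start codon RPN4 held 1 Yap1 element, beside 11.8% of all windows, and 0 Pdr elements, beside 0.650%. These are matches of letters. They do not show that a factor binds there, and no match says only that these letters are not in the window.

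RPN4 (YDL020C, chromosome IV, 415113 to 416708) was lower in SWI3 S237A than in wild type and less clearly lower in RPD3 KO. It had 78.4, 77.4 and 80.0 CPM in SWI3 S237A, 103.1, 94.2 and 102.2 CPM in RPD3 KO and 108.1, 103.6 and 102.1 CPM in RPD3 S418A, against 150.6, 107.4 and 111.1 CPM in wild type. All 3 SWI3 S237A libraries lay below every other library. In bulk RNA a lower level in every cell and in only a part of the cells cannot be told apart. Wild type replicate 1 lay far above the other wild type libraries, which were close to the RPD3 S418A range.

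RPN4 fell in SWI3 S237A by 0.65 ± 0.11 on the log2 scale (adjusted p = 0.000212), which is a fall of 36.1% on the linear scale. The fall was 0.48 without wild type replicate 1 and stayed past the threshold. In RPD3 KO the log2 change was -0.30 ± 0.11 (adjusted p = 0.0227). That call was lost without wild type replicate 1 (-0.13, adjusted p = 0.0772), without RPD3 KO replicate 12 (-0.26, adjusted p = 0.081), with scaling by total counts (-0.12, adjusted p = 0.311) and with a fit of these 2 strains alone (-0.25, adjusted p = 0.141). The authors' deposited table gives -0.25 with an adjusted p of 0.065 for RPD3 KO and -0.62 with 2.89e-06 for SWI3 S237A. In RPD3 S418A the value was -0.23 ± 0.11 (adjusted p = 0.27, edgeR), and -0.06 without wild type replicate 1. SWI3 S237A was also below RPD3 KO (-0.35 ± 0.11, adjusted p = 0.0127). The exact two-sided permutation test, whose smallest possible p with 3 against 3 libraries is 0.1, gave p = 0.1 for SWI3 S237A against wild type, 0.1 for RPD3 KO against wild type and 0.2 for RPD3 S418A against wild type.

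**Figure D1:**
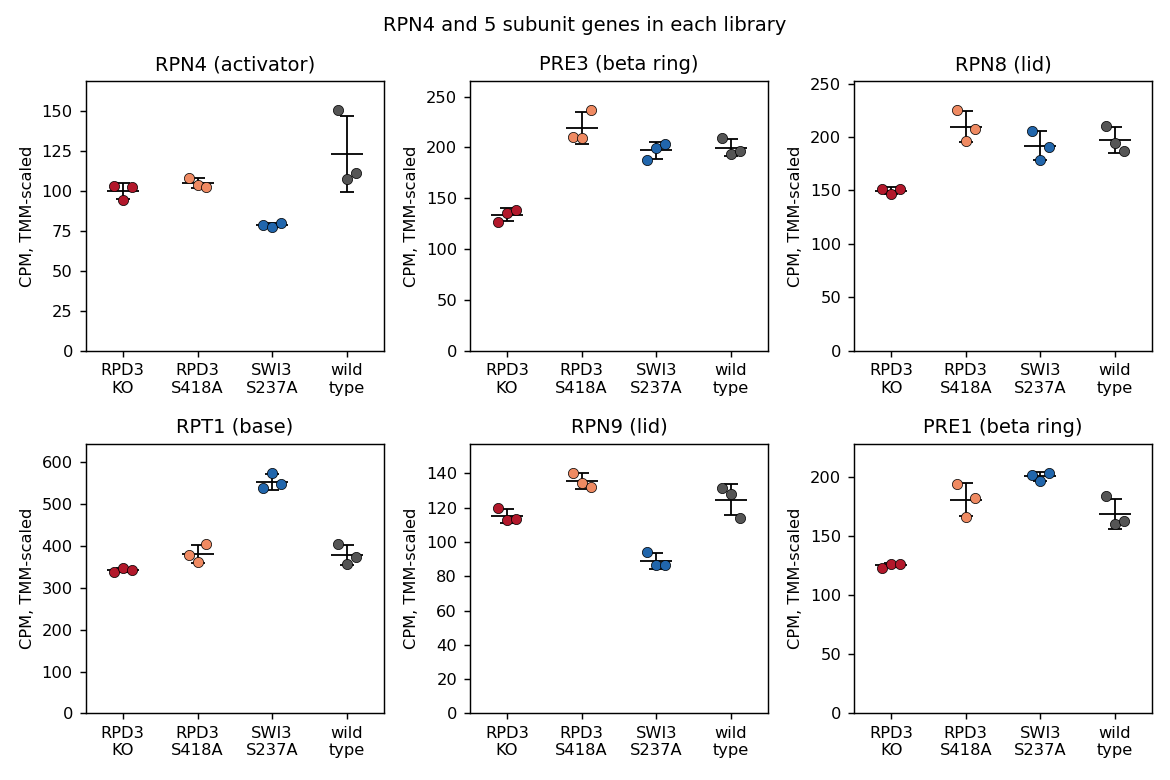
CPM of RPN4 and 5 subunit genes in each of the 12 libraries, TMM-scaled, with the mean and SD of the 3 libraries of a strain. RPN4 is lowest in the 3 SWI3 S237A libraries, PRE3, RPN8 and PRE1 are lowest in RPD3 KO, RPT1 is highest and RPN9 lowest in SWI3 S237A, and RPN4 is high in 1 wild type library.

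In RPD3 KO the subunit genes were slightly low as a group under TMM, and both the size and the sign of that shift depend on how libraries are scaled. Of the 33 members 0 were called higher and 16 lower (15 subunit genes and RPN4), where 31.9% of all targets tested were called higher and 38.0% lower. At an unadjusted p under 0.05 edgeR gave 0 higher and 17 lower, beside 2100 and 2495 of the 6327 targets, and DESeq2 called 0 higher and 16 lower, beside 2169 and 2246 of the 6580 targets it tested. Counted by libraries, 19 members lay below every wild type library in all 3 RPD3 KO libraries, beside 39.9% of all targets. The median log2 change of the members was -0.15, against -0.06 for all targets, with a range of -0.58 in PRE3 to 0.15 in RPN10. No member was called with a change of at least 2-fold, while 23.8% of all targets were.

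Scaling by total counts alone moved the median of all targets in RPD3 KO by more than 0.1, to 0.12, and the members' median to 0.03. Then 7 members were called lower (PRE3, PRE1, RPN8, PRE8, PUP2, RPN3 and SCL1) and 3 higher (RPN10, RPN1 and PRE2), beside 27.6% and 41.9% of all targets. Relative to the median of all targets the members lay at -0.09 under TMM, with 29 of 33 below it. Another scaling factor moves the members and all targets alike, so it cannot change this distance. A one-sided distance of similar size, with the other sign, was seen in RPD3 S418A against wild type, where 0 members were called. There the members lay at 0.07 under TMM, with 29 of 33 above the median of all targets. The authors' deposited table calls 13 members lower and 0 higher, beside 31.8% and 30.9% of its targets.

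**Figure D2:**
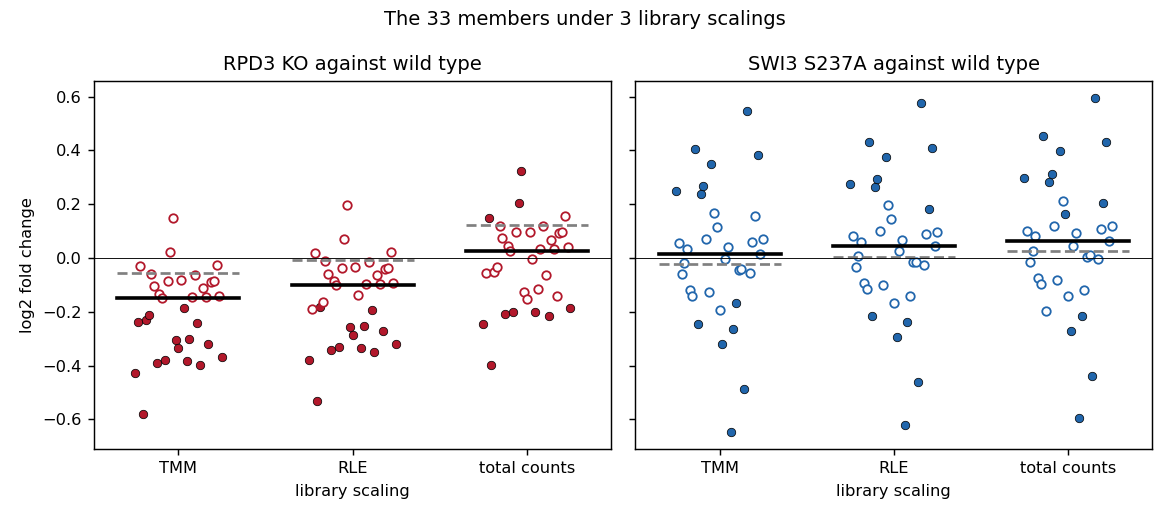
Log2 fold change of the 33 members in RPD3 KO and in SWI3 S237A against wild type, under TMM, RLE (relative log expression) and total-count scaling. Filled points passed an adjusted p of 0.05, the black bar is the members' median and the dashed grey bar the median of all targets tested. In RPD3 KO the members' median is -0.15 under TMM and 0.03 under total counts, where the dashed bar is at -0.06 and 0.12.

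In the alpha ring, which gates the entry to the core, 5 of 7 genes (71.4%) fell in RPD3 KO under TMM, beside 38.0% of all targets. These were PRE8 (-0.39), PUP2 (-0.38), SCL1 (-0.37), PRE10 (-0.24) and PRE5 (-0.21). PRE9 (-0.14) and PRE6 (-0.06) did not pass. PRE8 (YML092C, chromosome XIII, 85987 to 86739), the alpha ring gene with the lowest value, had 174.3, 182.9 and 181.6 CPM in RPD3 KO, against 243.6, 225.5 and 236.8 CPM in wild type. The groups did not overlap, and the difference was -0.39 ± 0.08 (adjusted p = 0.00111). PRE6 had 241.6, 284.3 and 250.1 CPM in RPD3 KO, against 276.8, 258.2 and 274.6 CPM in wild type, and these overlapped. The calls of PRE5 and PRE10 were lost under RLE scaling (-0.16 and -0.19) and total counts (-0.03 and -0.06), in the fit of 2 strains, and without RPD3 KO replicate 4. That of PRE10 was also lost without RPD3 KO replicate 20.

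In the beta ring 3 of 7 genes (42.9%) fell in RPD3 KO, near the 38.0% of all targets: PRE3 (-0.58), PRE1 (-0.43) and PRE4 (-0.23). PRE3 (YJL001W, chromosome X, 435163 to 435926) encodes the subunit with the caspase-like active site. It had 126.7, 135.7 and 138.7 CPM in RPD3 KO, against 208.9, 193.8 and 196.4 CPM in wild type, with no overlap (-0.58 ± 0.07, adjusted p = 1.17e-05). It was the largest change of any member in RPD3 KO, and it passed under each scaling tried, at -0.40 with total counts. The other genes for catalytic subunits did not pass under TMM: PUP1 (trypsin-like) had -0.15 and PRE2 (chymotrypsin-like) -0.03. PRE2 had 249.4, 262.4 and 252.7 CPM in RPD3 KO, against 261.8, 253.5 and 264.7 CPM in wild type, which overlapped. With total counts PRE2 was called higher, at 0.15. PRE4, a beta ring gene without an active site of its own, lost its call with total counts (-0.05) and in the fit of 2 strains (-0.18).

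Of the RPT genes, which encode the ATPases of the base, RPT2 was the 1 called of 6 in RPD3 KO. It was called lower (16.7% of the group), beside 38.0% of all targets. RPT2 (YDL007W, chromosome IV, 438047 to 439360) helps open the gate of the core. It had 294.2, 303.6 and 300.7 CPM in RPD3 KO, against 398.0, 358.9 and 364.7 CPM in wild type, with no overlap (-0.32 ± 0.07, adjusted p = 0.000845), and -0.14 without a call with total counts. The other 5 RPT genes ran from -0.15 (RPT1) to -0.03 (RPT5). RPT5 had 243.0, 255.4 and 253.6 CPM in RPD3 KO, against 272.2, 244.2 and 249.3 CPM in wild type, and the groups overlapped.

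Of the RPN genes 6 of 12 fell in RPD3 KO: RPN8 (-0.40), RPN3 (-0.38), RPN12 (-0.33), RPN11 (-0.31), RPN7 (-0.24) and RPN2 (-0.19). RPN11 encodes the lid enzyme that cuts off the ubiquitin chain, and RPN8 (YOR261C, chromosome XV, 815915 to 816931) its partner. RPN8 had 151.6, 146.2 and 151.7 CPM in RPD3 KO, against 210.4, 194.3 and 187.0 CPM in wild type, a fall of 24.0% with no overlap (-0.40 ± 0.08, adjusted p = 0.000509). The ubiquitin receptor genes did not pass in RPD3 KO under TMM: RPN1 had 0.02, RPN13 -0.08 and RPN10 0.15. RPN10 had 218.5, 243.4 and 219.6 CPM in RPD3 KO, against 191.0, 202.2 and 221.6 CPM in wild type, which overlapped. With total counts RPN10 (0.33) and RPN1 (0.21) were called higher, and RPN2, RPN7, RPN11 and RPN12 lost their calls (-0.00 to -0.15). RPN2 also lost its call under RLE scaling (-0.14), in the fit of 2 strains and without RPD3 KO replicate 12 or 20.

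In RPD3 S418A 0 members were called higher and 0 lower by edgeR, where 0.822% and 1.20% of all targets were, and DESeq2 and the authors' deposited table also called 0, where that table calls 0.395% of its targets higher and 1.17% lower and DESeq2 132 higher and 178 lower of 6452. At an unadjusted p under 0.05 edgeR gave 1 higher and 1 lower, beside 551 and 591 of the 6327 targets. The members' median was 0.06, between -0.23 in RPN4 and 0.17 in PRE6. Of the subunit genes the lowest value was -0.06 in RPN1. Counted by libraries, 3 subunit genes lay above every wild type library in all 3 RPD3 S418A libraries, beside 9.61% of all targets. PRE3 was one of them, with 210.5, 209.3 and 236.8 CPM in RPD3 S418A, against 208.9, 193.8 and 196.4 CPM in wild type (0.13 ± 0.07, adjusted p = 0.339, edgeR).

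Between both Rpd3 alleles, RPD3 S418A against RPD3 KO, 20 subunit genes were called higher and 0 members lower, where 39.4% and 33.3% of all targets were. The median of the members was 0.24, against 0.07 for all targets. PRE3 was the largest of them, at 0.71 ± 0.07 (adjusted p = 1.57e-06), 63.6% higher in RPD3 S418A. Next came PRE1 (0.53), RPN8 (0.49), PUP2 (0.48), PRE8 (0.46), RPT2 (0.46) and SCL1 (0.45). At an unadjusted p under 0.05 edgeR gave 23 higher and 0 lower, beside 2561 and 2169 of the 6327 targets, and DESeq2 called 20 and 0, beside 2338 and 2276 of 6580. By group, 6 of 7 alpha ring, 3 of 7 beta ring, 2 of 6 RPT and 9 of 12 RPN genes were higher. RPN4 did not pass, at 0.07 ± 0.11 (adjusted p = 0.586). With total counts 10 members were called higher and 2 lower (RPN1 at -0.25 and RPN10 at -0.31), beside 30.6% and 41.2% of all targets. This comparison shares the RPD3 KO libraries with that of RPD3 KO against wild type, as the 3 comparisons against wild type share the wild type libraries.

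In SWI3 S237A members were called in both directions, as all targets were. Of the 33 members 7 were called higher (21.2%) and 6 lower (18.2%), where 28.7% and 31.3% of all targets were, and the members' median was 0.02, against -0.02 for all targets. Higher were RPT1 (0.55), PRE7 (0.41), RPT5 (0.38), RPN1 (0.35), PUP1 (0.27), PRE1 (0.25) and PRE9 (0.24). Lower were RPN4, RPN9 (-0.49), RPN13 (-0.32), RPN5 (-0.26), PRE8 (-0.24) and RPN6 (-0.17). By group, the beta ring had 3 genes higher and 0 lower of 7, the RPT genes 2 and 0 of 6, the alpha ring 1 and 1 of 7, and the RPN genes 1 and 4 of 12. With total counts 9 members were higher and 4 lower, beside 31.3% and 27.4% of all targets, and the authors' deposited table calls 9 and 4, beside 25.7% and 26.1%. No member was called with a change of at least 2-fold, while 13.5% of all targets were.

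The largest rise in SWI3 S237A was that of RPT1 (YKL145W, chromosome XI, 174213 to 175616), an ATPase of the base. It had 538.1, 575.4 and 548.3 CPM in SWI3 S237A, against 405.3, 357.1 and 374.4 CPM in wild type, 46.2% higher with no overlap (0.55 ± 0.07, adjusted p = 2.96e-05). RPN1, the large base subunit that receives ubiquitin receptors, had 487.0, 454.8 and 467.5 CPM in SWI3 S237A, against 404.2, 354.3 and 348.1 CPM in wild type (0.35 ± 0.08, adjusted p = 0.00214). PRE7, a beta ring gene, had 281.5, 295.0 and 300.2 CPM in SWI3 S237A, against 236.0, 207.9 and 218.0 CPM in wild type (0.41 ± 0.08, adjusted p = 0.000549). PRE9, whose product is the alpha subunit yeast can live without, had 298.1, 323.0 and 328.7 CPM in SWI3 S237A, against 282.0, 265.4 and 258.5 CPM in wild type. None of these 4 overlapped wild type. Of all 6327 targets, 2013 likewise lay above every wild type library in all 3 SWI3 S237A libraries. The call of PRE9 was lost without SWI3 S237A replicate 18 (0.21), and that of PRE1 without wild type replicate 9 (0.21).

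The largest fall of a subunit gene in SWI3 S237A was that of RPN9 (YDR427W, chromosome IV, 1322205 to 1323386), a lid gene. It had 94.1, 86.5 and 86.3 CPM in SWI3 S237A, against 131.7, 128.0 and 114.2 CPM in wild type, a fall of 28.6% with no overlap (-0.49 ± 0.07, adjusted p = 7.23e-05). Of the other RPN genes called lower, RPN5 and RPN6 encode lid subunits and RPN13 a ubiquitin receptor. PRE8 had 192.3, 206.9 and 196.7 CPM in SWI3 S237A, against 243.6, 225.5 and 236.8 CPM in wild type (-0.24 ± 0.08, adjusted p = 0.0231). The call of RPN6 was lost with every other scaling, in DESeq2, in the fit of 2 strains and without any single SWI3 S237A library or wild type replicate 1 or 17 (-0.12 to -0.19). That of PRE8 was lost with total counts (-0.20) and without SWI3 S237A replicate 2 or 18 or wild type replicate 17 (-0.21 to -0.24). The lowest values that did not pass were -0.19 in RPN12, -0.14 in PRE6 and -0.13 in PUP3. PUP3 had 205.5, 234.8 and 205.5 CPM in SWI3 S237A, against 251.1, 222.3 and 232.2 CPM in wild type, and the groups overlapped. RPT2 (-0.05) and RPN8 (-0.04) overlapped wild type as well.

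**Figure D3:**
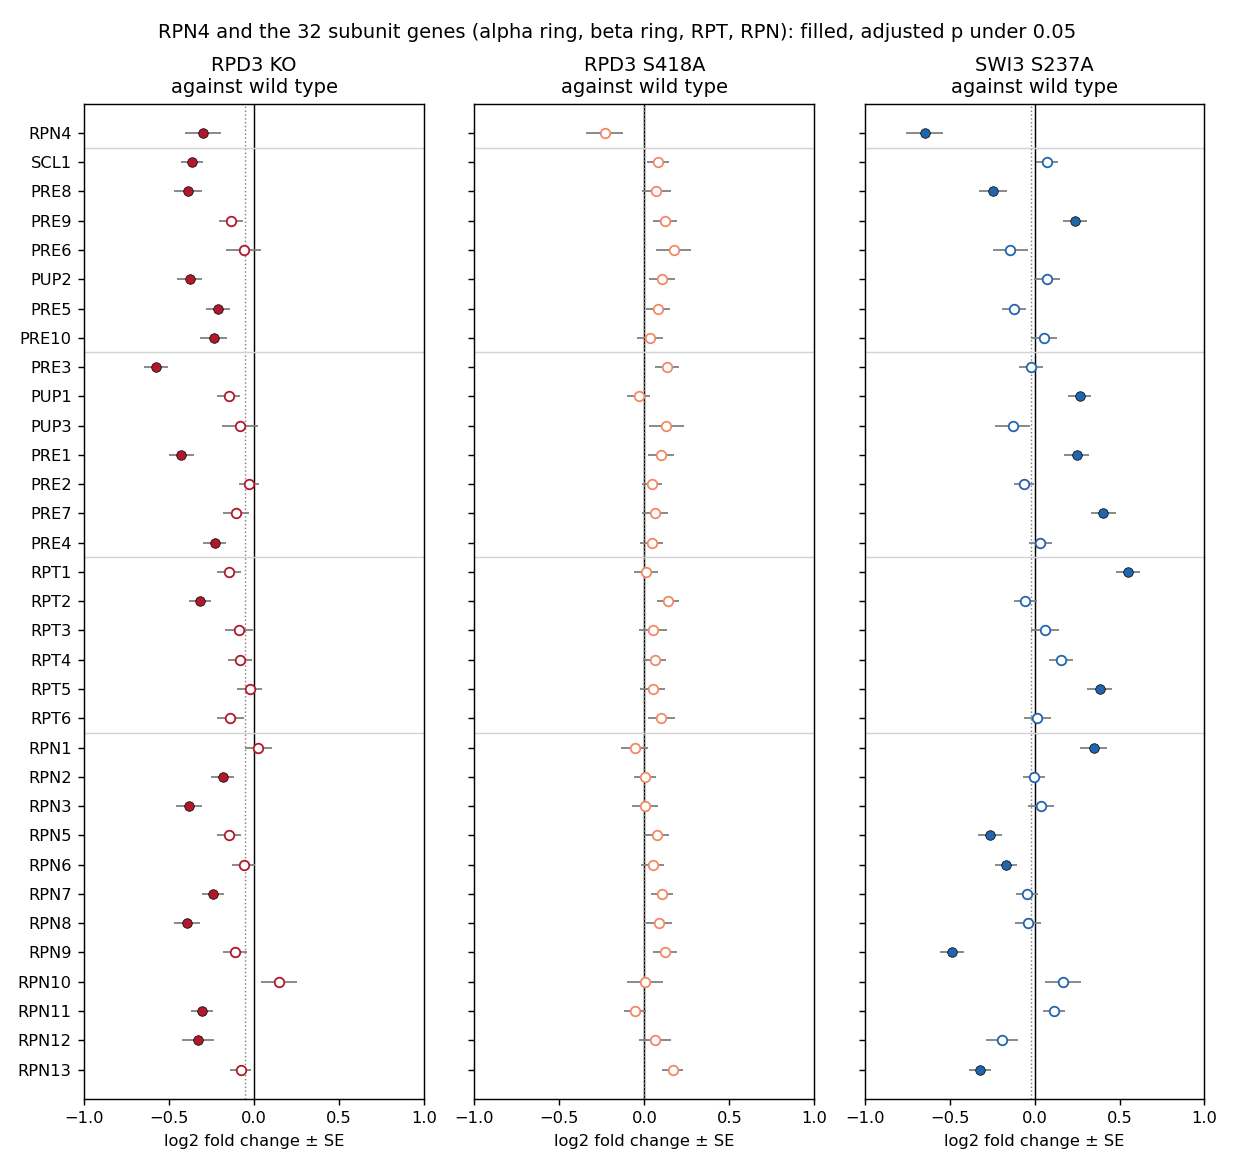
Log2 fold change ± SE of RPN4 and the 32 subunit genes in RPD3 KO, RPD3 S418A and SWI3 S237A against wild type, in the order activator, alpha ring, beta ring, RPT and RPN. Filled points passed an adjusted p of 0.05, and the dotted line is the median of all targets tested. Under this TMM scaling RPD3 KO has 16 filled points, all below 0 (7 below and 3 above with total counts), RPD3 S418A has 0, and SWI3 S237A has 7 above and 6 below 0.

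Set against each other directly, SWI3 S237A had 19 members higher and 3 lower than RPD3 KO, where 32.3% and 32.1% of all targets were. The median was 0.24, against -0.02 for all targets. The largest differences were RPT1 (0.69 ± 0.07, adjusted p = 2.97e-06), PRE1 (0.68 ± 0.07, adjusted p = 5.93e-06) and PRE3 (0.56 ± 0.07, adjusted p = 2.22e-05). PRE1 (YER012W, chromosome V, 177835 to 178431), a beta ring gene, was lower than wild type in RPD3 KO and higher than wild type in SWI3 S237A: it had 202.0, 196.7 and 204.1 CPM in SWI3 S237A and 123.6, 127.0 and 126.4 CPM in RPD3 KO, with wild type between them at 184.1, 160.3 and 162.9 CPM. Lower in SWI3 S237A were RPN9 (-0.37), RPN4 (-0.35) and RPN13 (-0.24). With total counts 13 members were higher and 6 lower, beside 24.0% and 40.9% of all targets, and the fit of these 2 strains alone gave 5 lower, with RPN5 (-0.12) and RPN6 (-0.11) added.

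Beside the heat shock chaperone genes the changes of the subunit genes were small, and in SWI3 S237A they had both signs. A list of 26 chaperone genes driven by Hsf1, chosen with results of these data known, was set beside them. In RPD3 KO 25 of 26 of these were lower, with a median log2 change of -2.59, and in SWI3 S237A 24 of 26, with a median of -2.63. Of all targets 38.0% were lower in RPD3 KO and 31.3% in SWI3 S237A. In RPD3 S418A 0 were called, with a median of -0.07. The medians of the 32 subunit genes were -0.15, 0.03 and 0.07 in RPD3 KO, SWI3 S237A and RPD3 S418A. Against the wild type mean, the median log2 level of the chaperone list was -2.65 to -2.51 in the RPD3 KO libraries and -2.69 to -2.57 in those of SWI3 S237A. That of the subunit list was -0.19 to -0.13 in RPD3 KO and 0.02 to 0.03 in SWI3 S237A. With total counts the subunit median in RPD3 KO was 0.03 and the chaperone median -2.41. HSP104, the disaggregase gene, had 123.5, 124.6 and 121.7 CPM in RPD3 KO and 316.6, 335.6 and 335.5 CPM in SWI3 S237A, against 6941, 5995 and 6221 CPM in wild type. HSP82, for Hsp90, changed by -4.98 in RPD3 KO and -4.74 in SWI3 S237A, and SSA4, for an inducible Hsp70, by -4.95 and -5.83. RPN4, the 1 member with a heat shock element in its window, changed by -0.30 and -0.65 in the same 2 comparisons. Its value in RPD3 S418A was -0.23, without a call. In RPD3 KO its value was -0.13 without wild type replicate 1, and the call was lost.

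**Figure D4:**
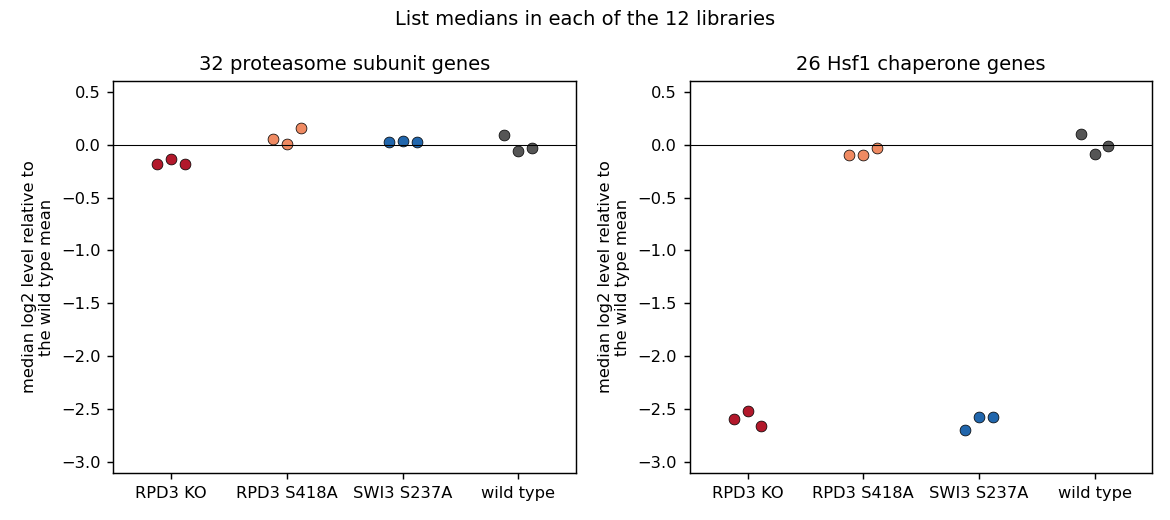
Median log2 level of the 32 subunit genes and of 26 Hsf1 chaperone genes in each library, relative to the wild type mean of each gene, on the same axis. The chaperone list lies at or below -2.51 in all RPD3 KO and SWI3 S237A libraries, while the subunit list stays between -0.19 and 0.15 in all 12.

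Wild type replicate 1 was the highest of the wild type libraries in 28 of 32 subunit genes. In RPD3 KO replicate 12 was the highest in 24 and replicate 4 the lowest in 22, and in RPD3 S418A replicate 19 was the highest in 21 and replicate 11 the lowest in 22. As a median over the subunit genes, wild type replicate 1 lay 0.09 above its strain's mean on the log2 scale, and as a median over the chaperone genes 0.10 above it. Without this library 16 members were called lower in RPD3 KO and 0 higher, and the median of the subunit genes was -0.12.

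Levels per length, in TPM (transcripts-per-million, as deposited), set the genes side by side. The 32 subunit genes together held 6877 ± 21.7 TPM in RPD3 KO, 7074 ± 301 TPM in RPD3 S418A and 7799 ± 91.9 TPM in SWI3 S237A, against 6873 ± 36.6 TPM in wild type (SD, n = 3 each). In TPM, RPD3 KO was thus at 100% of wild type and SWI3 S237A at 113%, while in TMM-scaled CPM per kilobase they were at 87.6% and 104%. By group the TPM sums in SWI3 S237A were 125% of wild type for the RPT genes, 118% for the beta ring, 110% for the alpha ring and 105% for the RPN genes. In TMM-scaled CPM per kilobase the same groups were at 115%, 108%, 100% and 96.5%. In wild type the subunit genes lay within 3.36-fold of each other, from RPN1 at 100.9 ± 4.11 TPM to SCL1 at 339.0 ± 4.03 TPM. In SWI3 S237A the spread was 4.57-fold, from RPN9 at 92.7 ± 6.95 TPM to PRE9 at 424.1 ± 13.3 TPM. Within the alpha ring it was 1.29-fold in wild type and 1.74-fold in SWI3 S237A. The target of PRE3 includes its intron, so its TPM counts more bases than the message has. RPN4, at 64.5 ± 5.02 TPM in RPD3 KO, 57.5 ± 3.04 TPM in RPD3 S418A and 49.1 ± 1.80 TPM in SWI3 S237A, against 69.2 ± 10.3 TPM in wild type, lay below every subunit gene in each strain.

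The 27 subunit genes with PACE had a median of -0.15 in RPD3 KO, with 0 higher and 13 lower, and the 5 without it, 3 of which hold the near match, a median of -0.15, with 0 and 2. In SWI3 S237A the medians were 0.03 and -0.04. The difference between these sets was not tested. Of the 45 other genes with PACE 44 were tested: 12 were higher and 18 lower in RPD3 KO, and 17 and 13 in SWI3 S237A, from -3.38 to 2.23 and from -2.22 to 0.93. Of all targets 31.9% were higher and 38.0% lower in RPD3 KO, and 28.7% and 31.3% in SWI3 S237A. In RPD3 KO the named risers among them were BDF2 (1.17), YBR284W (1.26), KIN2 (0.77) and ACS1 (1.07), and the named fallers YPI1 (-1.21), YCL042W (-3.38), SGT2 (-1.13) and HUA1 (-1.04). SGT2, a cochaperone gene, had 313.8 ± 14.4 CPM in RPD3 KO, against 685.0 ± 75.1 CPM in wild type (SD, n = 3 each). In SWI3 S237A CCT6 (0.69), a subunit gene of the cytosolic chaperonin, GSF2 (0.54), COA6 (0.93) and ACS1 (0.43) rose, and YPI1 (-0.83), YCL042W (-2.22), ALG13 (-0.98) and ATG14 (-0.96) fell. By their systematic names, some of these other genes lie next to a subunit gene. Examples are YPI1 next to RPN11, ALG13 next to RPT6, and the gene at 2.23 in RPD3 KO next to RPN5. Such neighbours can share the same copy of PACE, and shared copies were not counted.

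Genes that build or accompany the proteasome ran from -0.94 to 1.55 in RPD3 KO, beside -0.58 to 0.15 for the members. The list of 15 assembly and accessory genes was, like the members, chosen with results of these data known. In RPD3 KO 3 were higher (20.0%) and 10 lower (66.7%), beside 31.9% and 38.0% of all targets, with a median of -0.42. The higher ones were SPG5 (1.55), needed for proteasome function in stationary phase, BLM10 (1.38), an alternative cap of the core, and ECM29 (1.13), which tethers core and cap. BLM10 had 283.4, 305.0 and 293.9 CPM in RPD3 KO and 153.1, 145.6 and 136.9 CPM in SWI3 S237A, against 121.6, 111.6 and 104.8 CPM in wild type. All 3 strains were apart from one another in every library.

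Among those that fell in RPD3 KO were the chaperone genes for the assembly of the base, RPN14 (-0.94 ± 0.06, adjusted p = 4.1e-08), HSM3 (-0.85) and NAS2 (-0.81), while NAS6 (-0.04) did not pass. RPN14 had 24.99, 26.3 and 28.04 CPM in RPD3 KO, against 51.3, 50.7 and 50.8 CPM in wild type. Of the core assembly chaperones, POC4 (-0.45), IRC25 (-0.42), UMP1 (-0.29) and PBA1 (-0.22) fell and ADD66 did not pass. With total counts POC4 (-0.27), UMP1 (-0.11) and PBA1 (-0.04) did not pass either. UMP1 had 100.6, 97.9 and 102.2 CPM in RPD3 KO, against 130.1, 117.4 and 121.0 CPM in wild type. HUL5 (-0.55) and UBP6 (-0.53), the ubiquitin ligase and the deubiquitinase bound to the cap, and SEM1 (-0.54), a small lid protein, were lower too. In SWI3 S237A the same list had 3 higher (SPG5 at 0.68, BLM10 at 0.37 and ECM29 at 0.34) and 7 lower (20.0% and 46.7%, beside 28.7% and 31.3% of all targets), among them NAS2 (-0.59), HUL5 (-0.48), RPN14 (-0.43) and UBP6 (-0.42). UMP1 had 0.02 there and did not pass. In RPD3 S418A 0 of the 15 were called by edgeR, and at an unadjusted p under 0.05 it gave 1 higher and 1 lower.

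**Figure D5:**
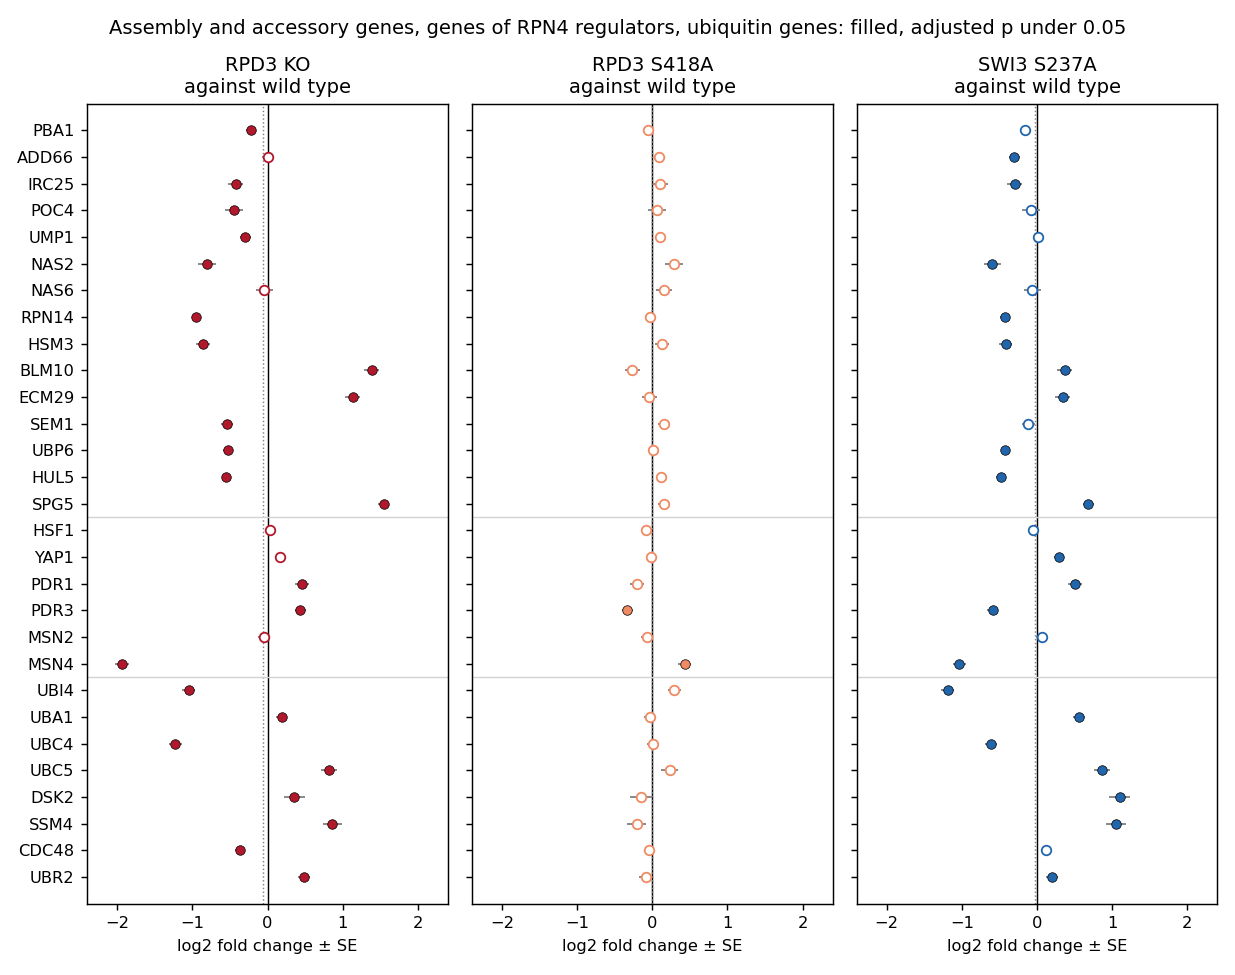
Log2 fold change ± SE in the 3 mutant strains against wild type of 15 proteasome assembly and accessory genes, 6 regulator genes (HSF1, YAP1, PDR1, PDR3, MSN2 and MSN4), and 8 ubiquitin genes. Filled points passed an adjusted p of 0.05. SPG5, BLM10 and ECM29 lie above 0 and RPN14, HSM3 and NAS2 below 0 in both RPD3 KO and SWI3 S237A, and all 6 lie farther from 0 in RPD3 KO.

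Of 23 ubiquitin system genes 9 were higher (39.1%) and 8 lower (34.8%) in RPD3 KO, beside 31.9% and 38.0% of all targets, with a median of 0.03. In SWI3 S237A 7 were higher and 7 lower (30.4% each), beside 28.7% and 31.3% of all targets, with a median of -0.07. These shares were near those of all targets. UBI4, the polyubiquitin gene, had 337.6, 359.2 and 339.0 CPM in RPD3 KO and 291.6, 328.3 and 320.8 CPM in SWI3 S237A, against 626.1, 729.1 and 785.8 CPM in wild type (-1.05 ± 0.09, adjusted p = 3.14e-07, and -1.19 ± 0.09, adjusted p = 2.24e-07). The paired conjugating enzyme genes went opposite ways: UBC4 fell (-1.22 in RPD3 KO, -0.61 in SWI3 S237A) and UBC5 rose (0.82 and 0.86). SSM4, a ligase gene of the endoplasmic reticulum, rose in both (0.86 and 1.05), and DSK2, a shuttle receptor gene, rose more in SWI3 S237A (1.10) than in RPD3 KO (0.36), a difference of 0.74 ± 0.14 (adjusted p = 0.000555). The call of DSK2 in RPD3 KO was lost without any 1 of wild type replicates 1 and 9 or the 3 RPD3 KO libraries (0.29 to 0.36).

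Of 6 regulator genes listed, HSF1, PDR1, PDR3 and YAP1 are for factors known to act on RPN4, and MSN2 and MSN4 for stress activators. HSF1 did not pass in any strain under TMM (0.03 in RPD3 KO, -0.08 in RPD3 S418A and -0.06 in SWI3 S237A), and passed in RPD3 KO with total counts (0.21). PDR1 rose in RPD3 KO (0.46) and SWI3 S237A (0.50). PDR3 rose in RPD3 KO (0.44) and fell in SWI3 S237A (-0.59) and RPD3 S418A (-0.33), and it had 67.1, 61.8 and 68.2 CPM in RPD3 KO and 34.3, 29.5 and 33.2 CPM in SWI3 S237A, against 46.1, 51.2 and 48.5 CPM in wild type. YAP1 rose in SWI3 S237A (0.29) and did not pass in RPD3 KO under TMM (0.16), where RLE scaling, total counts and DESeq2 called it (0.21, 0.34 and 0.21). MSN4, a general stress activator gene, fell in RPD3 KO (-1.93) and SWI3 S237A (-1.03) and rose in RPD3 S418A (0.43). The RPD3 S418A calls of PDR3 and MSN4 were lost with total counts, in the fit of 2 strains and without RPD3 S418A replicate 19, and that of PDR3 also without RPD3 S418A replicate 11 or wild type replicate 9 or 17. MSN2, the paralog of MSN4, did not pass (-0.05 in RPD3 KO, 0.07 in SWI3 S237A and -0.07 in RPD3 S418A). The part of these genes in the RPN4 values was not tested.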

How the data were processed

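RNA was measured in 12 libraries, with strains taken from the labels. Per the submitters' processing notes, Trimmomatic 0.36, kallisto 0.44.0 and the R64 build were used. The sources used here do not give the strand setting. The deposited files hold an estimated count and a TPM for each target, per the file headers. The authors' deposited tables of comparisons, which the notes tie to DESeq2, hold a mean signal, a log2 fold change, a test score and a p-value, per the file headers. Their design formula is not stated there.

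Estimated counts were rounded and fitted with edgeR 4.0.16 in R 4.3.3 (quasi-likelihood, robust, TMM, default low-count filter, 12 libraries, 5 comparisons). DESeq2 1.42.0, other scalings, no filter, non-robust dispersions, fits of 2 strains, a term for runs of label numbers and leaving out each library were alternatives. The method was tested on simulated data. The exact permutation test used mean log2 CPM with 0.5 added. Total counts of 18292555 to 26952031 set the precision, and floors cover counting error only. Motifs were searched in R64 windows.

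The members, gene lists and tests were chosen with earlier results of these data known. Every member may be named. Per-library values are given for RPN4 and for the members with the largest and smallest log2 change of each subunit group in RPD3 KO and in SWI3 S237A. PRE1 was added after its values were seen. Other lists give up to 4 genes with the smallest p, and fixed genes (UMP1, BLM10, UBI4, HSP104, HSP82, SSA4). No columns were set aside.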

Additional observations from a re-analysis of the deposited data

How the results depend on the processing

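Each comparison had 429 member values under alternatives. Against wild type, 399 kept their side of the threshold in RPD3 KO, 429 in RPD3 S418A and 405 in SWI3 S237A. Against RPD3 KO, 398 did so in RPD3 S418A and 406 in SWI3 S237A. These counts leave out the direction of values called in neither fit, and some of those changed sign. In RPD3 S418A against wild type 29 members were above 0 under TMM and 27 under RLE scaling. Scaling by total counts alone called, in RPD3 KO, 3 members higher and 7 lower, gave medians of 0.031 for the subunit genes and -2.41 for the chaperone genes, and reversed PRE2 (0.15). In RPD3 S418A against RPD3 KO it called 10 higher and 2 lower, gave medians of 0.073 and 2.38, and reversed PBA1 (-0.004). In SWI3 S237A against RPD3 KO it called 6 lower, with medians of 0.12 and 0.14, and in SWI3 S237A against wild type the subunit median was 0.073. RLE scaling gave subunit medians of -0.10 (RPD3 KO), 0.052 (SWI3 S237A) and 0.23 (SWI3 S237A against RPD3 KO) and a chaperone median of 2.49 (RPD3 S418A against RPD3 KO), and DESeq2 -0.10, 0.052, 0.23 and 2.50. Fits of 2 strains gave -0.10 in RPD3 KO, 2.48 for the chaperones in RPD3 S418A against RPD3 KO, and 5 members lower in SWI3 S237A against RPD3 KO. RPN4 in RPD3 KO lost its call with total counts (-0.12) and in the fit of 2 strains (-0.25). The cause was not tested. PACE on the gene's own strand alone was in 59.4% of subunit windows and 0.733% of all. The core GGTGGCAA was in 1.68% of all windows, NGTGGCAAA in 2.38%, and 500 bases before the start codon in 1.65%, the last 2 chosen after seeing the data. Summed levels as CPM per kilobase were 87.6% (RPD3 KO) and 104% (SWI3 S237A) of wild type.

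Leaving out each library in turn gave these ranges. In RPD3 KO against wild type, 0 members were higher and 14 to 17 lower, subunit medians -0.19 to -0.12, chaperone medians -2.62 to -2.55 and RPN4 -0.39 to -0.13. In RPD3 S418A against wild type, 0 were higher and 0 lower, subunit medians 0.02 to 0.11, chaperone medians -0.13 to -0.0050 and RPN4 -0.32 to -0.06. In SWI3 S237A against wild type, 6 to 9 were higher and 4 to 6 lower, subunit medians -0.0085 to 0.076, chaperone medians -2.72 to -2.51 and RPN4 -0.74 to -0.48. In RPD3 S418A against RPD3 KO, 19 to 21 were higher and 0 to 1 lower, subunit medians 0.21 to 0.29, chaperone medians 2.51 to 2.59 and RPN4 0.03 to 0.09. In SWI3 S237A against RPD3 KO, 15 to 19 were higher and 3 lower, subunit medians 0.19 to 0.27, chaperone medians 0.22 to 0.28 and RPN4 -0.40 to -0.32. The strains share no replicate numbers, but the labels' numbers form 3 runs with 1 library of each strain, which the labels do not call batches. A fit with the run as a replicate block, added after seeing the data, called 0 members higher and 16 lower in RPD3 KO, 0 and 0 in RPD3 S418A and 7 and 5 in SWI3 S237A against wild type (without RPN6), and 21 and 0 in RPD3 S418A and 19 and 3 in SWI3 S237A against RPD3 KO. Deviations from the strain means correlated across targets above 0.1 in 4 of 18 pairs of 1 run and in 4 of 36 pairs of different runs. The median r was 0.024 within runs and -0.018 between runs, and the highest r was 0.271 and 0.169. The pairs share libraries, so these values cannot tell whether the runs are batches. The main fit used no term for them.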
